A study of Mus musculus with 6 samples.

Results

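Extracellular proteolysis in cartilage and disc is set by proteases and by the inhibitors that are secreted beside them. This account describes 9 genes of that balance among the 43472 gene symbols counted in the intervertebral discs (IVDs) of *Adgrg6* conditional mutant mice. They are the 4 tissue inhibitors of metalloproteinases (*Timp1*, *Timp2*, *Timp3* and *Timp4*), the serpins *Serpine2* and *Serpinf1*, the plasminogen activators *Plau* and *Plat*, and the urokinase receptor *Plaur*. The members were taken by symbol from the count files, all 9 were found, and all 9 passed the filter on low counts. They were chosen by family, with the expression of mutant against control libraries in this data set already known, so their differences between genotypes are given as a description.

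TIMP proteins bind the catalytic site of matrix metalloproteinases (MMPs) and of some ADAM and ADAMTS proteases and so limit the breakdown of collagen and proteoglycan. In the plasminogen system, urokinase (from *Plau*) and tissue-type activator (from *Plat*) cut plasminogen into plasmin, a broad protease that can itself activate MMPs, and the urokinase receptor (from *Plaur*) holds urokinase at the cell surface. Serpins such as protease nexin-1 (from *Serpine2*) trap serine proteases in a covalent complex, whereas pigment epithelium-derived factor (from *Serpinf1*) has the serpin fold but is not an inhibitor of proteases and is known for limiting blood vessel growth.

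The mutant group is *Col2Cre; Adgrg6f/f*, in which Cre under control of type II collagen sequences removes the floxed *Adgrg6* alleles (listed as *Gpr126*) in the embryonic disc. The control group is wild type in its genotype label and Cre (-) littermates in the study's text, but Col2Cre control in its titles, so whether the controls carry Cre is not settled by these sources. All mice are labelled C57B6/J at postnatal day 20, and each of the 3 mutant and 3 control libraries is a pool of thoracic and lumbar discs from 2 to 3 mice. *Col2Cre* recombines the whole disc but also periosteum and trabecular bone of the vertebra, so the deletion is not limited to disc cells.

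Each library had between 9061491 and 12017008 counts on genes. *Gpr126* itself was at 124, 108 and 94.3 CPM (counts scaled to a common library size) in the controls and at 138, 124 and 106 CPM in the mutants, in the order of replicates 1, 2 and 3 that is used throughout. These counts over the whole gene do not measure the deleted part alone. Chondrocyte markers were present in every library, with sums over 7 genes of 77174 to 138130 CPM. Of these 7, 2 had a log2 fold change of mutant over control above 0 (median -0.30), and *Matn3* (412 to 689 against 222 to 408 CPM) and *Hapln1* (861 to 1176 against 602 to 836 CPM) were lower in every mutant library. Other tissues were present in unequal amounts. A sum over 6 skeletal muscle markers was 3609 CPM in control replicate 1 and 65.0 to 148 CPM in the other libraries, and a sum over 7 neuron and glia markers ran from 219 CPM in control replicate 1 to 3572 CPM in mutant replicate 1. In whole-tissue RNA, fewer cells of a type and less RNA per cell cannot be told apart.

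The 9 genes covered a wide range of levels. To compare one gene with another, CPM were divided by the length of annotated exons in kilobases. On this scale *Timp2* led at 101 ± 14.1 CPM per kb (SD, n = 6 libraries), above 97.7% of the 15400 tested genes with a known length. It was followed by *Serpinf1* at 51.2 ± 15.4, *Timp1* at 42.8 ± 9.13 and *Timp3* at 40.1 ± 7.34 CPM per kb, above 95.5%, 94.6% and 94.1% of genes. This order pools the genotypes: in control libraries *Timp1* (47.0 ± 5.46, SD, n = 3) came before *Serpinf1* (39.1 ± 7.88), and in mutant libraries *Serpinf1* (63.3 ± 9.75) came before *Timp3* (43.3 ± 5.21) and *Timp1* (38.6 ± 11.2). *Serpine2* was at 11.4 ± 2.00 and *Plaur* at 4.56 ± 0.657 CPM per kb, and the low end of the family was *Timp4* at 2.19 ± 1.03, *Plau* at 1.03 ± 0.611 and *Plat* at 0.746 ± 0.298 CPM per kb. Thus the inhibitors and the non-inhibitory serpin other than *Timp4* lay above the activators and their receptor, and both activators lay below the level of most genes, above 18.1% of genes for *Plau* and 13.0% for *Plat*.

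Neighbours in this order were compared over the 6 libraries with a two-sided exact sign-flip permutation test on the log2 scale. The smallest p it can give is 0.0312, and over 8 pairs 0 passed 0.05 after Benjamini-Hochberg adjustment. *Timp2* lay above *Serpinf1* in 6 of 6 libraries, by 1.03 ± 0.31 on the log2 scale of the level (exact permutation p = 0.0312, adjusted p = 0.0625). The same held, at the same p, for *Timp3* above *Serpine2* (1.82 ± 0.45), *Serpine2* above *Plaur* (1.31 ± 0.18) and *Plaur* above *Timp4* (1.18 ± 0.55). Over all 6 libraries the log2 difference was 0.23 ± 0.71 between *Serpinf1* and *Timp1* and 0.08 ± 0.45 between *Timp1* and *Timp3*, neither beyond its spread. On the length of annotated exons, the first of these splits by genotype. *Timp1* lay above *Serpinf1* in all 3 control libraries and below it in all 3 mutant libraries. The gap was small in control replicate 2 (45.8 against 45.1 CPM per kb) and in mutant replicate 1 (49.5 against 52.6 CPM per kb). *Plau* and *Plat* were likewise not separated (0.36 ± 1.11, higher in 4 of 6 libraries), and *Timp4* was above *Plau* in 5 of 6 libraries (exact permutation p = 0.0625, adjusted p = 0.1). With the longest transcript as the gene length, *Timp3* moved up to the second place at 69.1 CPM per kb and *Serpine2* to 27.7 CPM per kb. The split by genotype did not hold on that length, where *Serpinf1* lay above *Timp1* in 5 of 6 libraries (65.9 and 43.1 CPM per kb).

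**Figure D1:**
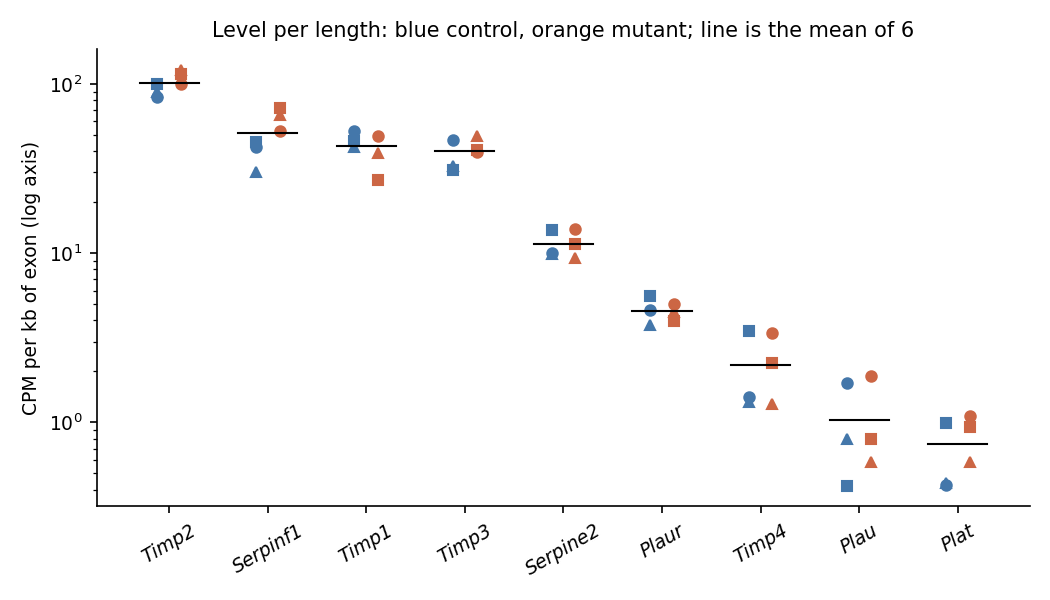
Level of each gene in CPM per kb of exon, on a log axis, in the 3 control (blue) and 3 mutant (orange) libraries, with replicates 1, 2 and 3 as circle, square and triangle and the mean of 6 libraries as a line. *Timp2* is highest at 101 CPM per kb and *Plat* lowest at 0.746, with *Serpinf1*, *Timp1* and *Timp3* close together.

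Among the 4 inhibitors of metalloproteinases, *Timp2* held 45.3% to 62.0% of their summed level per length in a library, *Timp1* 14.7% to 28.6%, *Timp3* 17.3% to 25.3% and *Timp4* 0.608% to 1.94%. Their sum was 185, 179 and 166 CPM per kb in the controls and 192, 185 and 211 CPM per kb in the mutants. The highest control sum lay just above the lowest mutant sum. The sum of 13 Mmp genes tested was of the same order, 115 to 165 CPM per kb in control and 159 to 164 CPM per kb in mutant libraries, so that the log2 ratio of Timp to Mmp level was 0.33 ± 0.18 in control and 0.28 ± 0.10 in mutant IVDs (SD, n = 3).

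*Timp1*, *Timp3* and *Timp4* each lie inside a synapsin gene on the opposite strand. In the annotation on GRCm38, *Timp3* (chromosome 10, 86300372 to 86349506, plus strand) lies within *Syn3* (86055125 to 86498896), *Timp1* (chromosome X, 20870166 to 20874735, plus strand) within *Syn1* (20860511 to 20921004), and *Timp4* (chromosome 6, 115241892 to 115252205, minus strand) within *Syn2* (115134902 to 115282006). Synapsins coat synaptic vesicles and are known as genes of neurons.

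*Syn3* was given nearly the same number of counts as *Timp3* in every library. *Timp3* had 3568, 2271 and 3405 counts in the controls and 2842, 4084 and 3777 in the mutants. *Syn3* had 3703, 2335 and 3609 in the controls and 2920, 4150 and 3605 in the mutants, which is 0.954 to 1.06 times *Timp3*. *Syn3* was highest in CPM in control replicate 1 (396 CPM), the library with the lowest sum of neuron and glia markers (219 CPM), and the neuron gene *Snap25* did not exceed 3.21 CPM in any library.

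*Syn1* stood to *Timp1* in a similar way, with 457, 489 and 547 counts against 440, 366 and 481 in the controls and 422, 428 and 351 against 386, 295 and 328 in the mutants. These are 1.04 to 1.45 times the counts of *Timp1*. *Timp4* differed, with 71 to 185 counts a library against 5 to 29 for *Syn2*. It lies also inside a second gene of the opposite strand, *Gm17482* (115227343 to 115259294), which had 0 counts in every library. The strand setting of the counter is not given in the sources used here and the kit named for these libraries does not mark strand, so reads in exon bases of both genes cannot be assigned to one of them. *Timp3* shares 1733 of its 8144 exon bases with *Syn3* and *Timp4* shares 90 of 5894 with *Syn2*, while *Timp1* and *Syn1* share 0 exon bases in this annotation. Whether the *Syn1* and *Syn3* counts came from reads of the *Timp* genes was not tested.

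**Figure D2:**
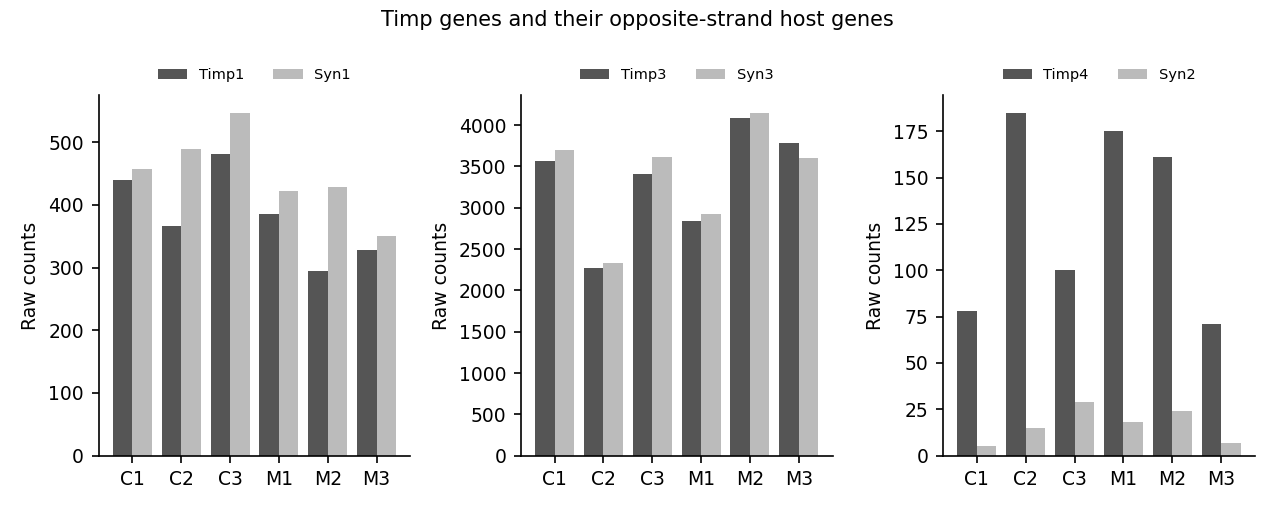
Raw counts of *Timp1*, *Timp3* and *Timp4* (dark bars) and of the synapsin gene that holds each on the opposite strand (light bars), in control (C1 to C3) and mutant (M1 to M3) libraries. *Syn3* and *Timp3* are nearly level in all 6 libraries, while *Syn2* stays at 5 to 29 counts beside 71 to 185 for *Timp4*.

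With the counts of the hosts added, *Timp1* would stand at 92.8 and *Timp3* at 80.8 CPM per kb, and both would lie above *Serpinf1*. *Timp2*, at 101 CPM per kb, would then lie above *Timp1* in only 2 of 6 libraries, so its lead and its share of the summed Timp level given above depend on leaving the host counts out. This sum was chosen after the synapsin counts were seen. Only genes with an opposite-strand host gained counts in it, so *Timp2* and *Serpinf1* gained none and the levels are not on a like scale. The ratio of Timp to Mmp level given above also leaves the host counts out. *Serpine2* (chromosome 1, 79794197 to 79861180), *Serpinf1* (chromosome 11, 75409769 to 75422701), *Plau* (chromosome 14, 20836660 to 20843385), *Plat* (chromosome 8, 22757727 to 22782844) and *Plaur* (chromosome 7, 24462484 to 24475968) overlap no other annotated gene. *Timp2* (chromosome 11, 118301069 to 118355740) holds only *Cep295nl*, on its own strand and without shared exon bases.

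A log2 fold change of mutant over control IVDs was above 0 for 7 of the 9 genes, where 48.4% of all genes tested were above 0, and the median of the 9 was 0.15 against -0.01 over all 16152 genes. In edgeR, no member passed an adjusted p of 0.05 (0 of 9, against 0.00619% of all genes), and 1, *Serpinf1*, had an unadjusted p under 0.05, where 7.21% of genes did. The members' counts, 0 and 1, were the same with DESeq2 (0.359% and 7.6% of all genes), with limma-voom (0% and 9.14%), without the filter on low counts (0.927% and 8.62%) and with the replicate number as a block (0% and 6.2%). The 3 mutant libraries lay above all 3 controls, or below them, for 11.4% of genes. They lay above for 2 of the 9 genes, *Serpinf1* and *Timp2*, where 5.45% of genes did, and below them for none, where 5.96% did. Since values of this contrast were known when the genes were chosen, these counts are printed beside the background and nothing is read from them.

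**Figure D3:**
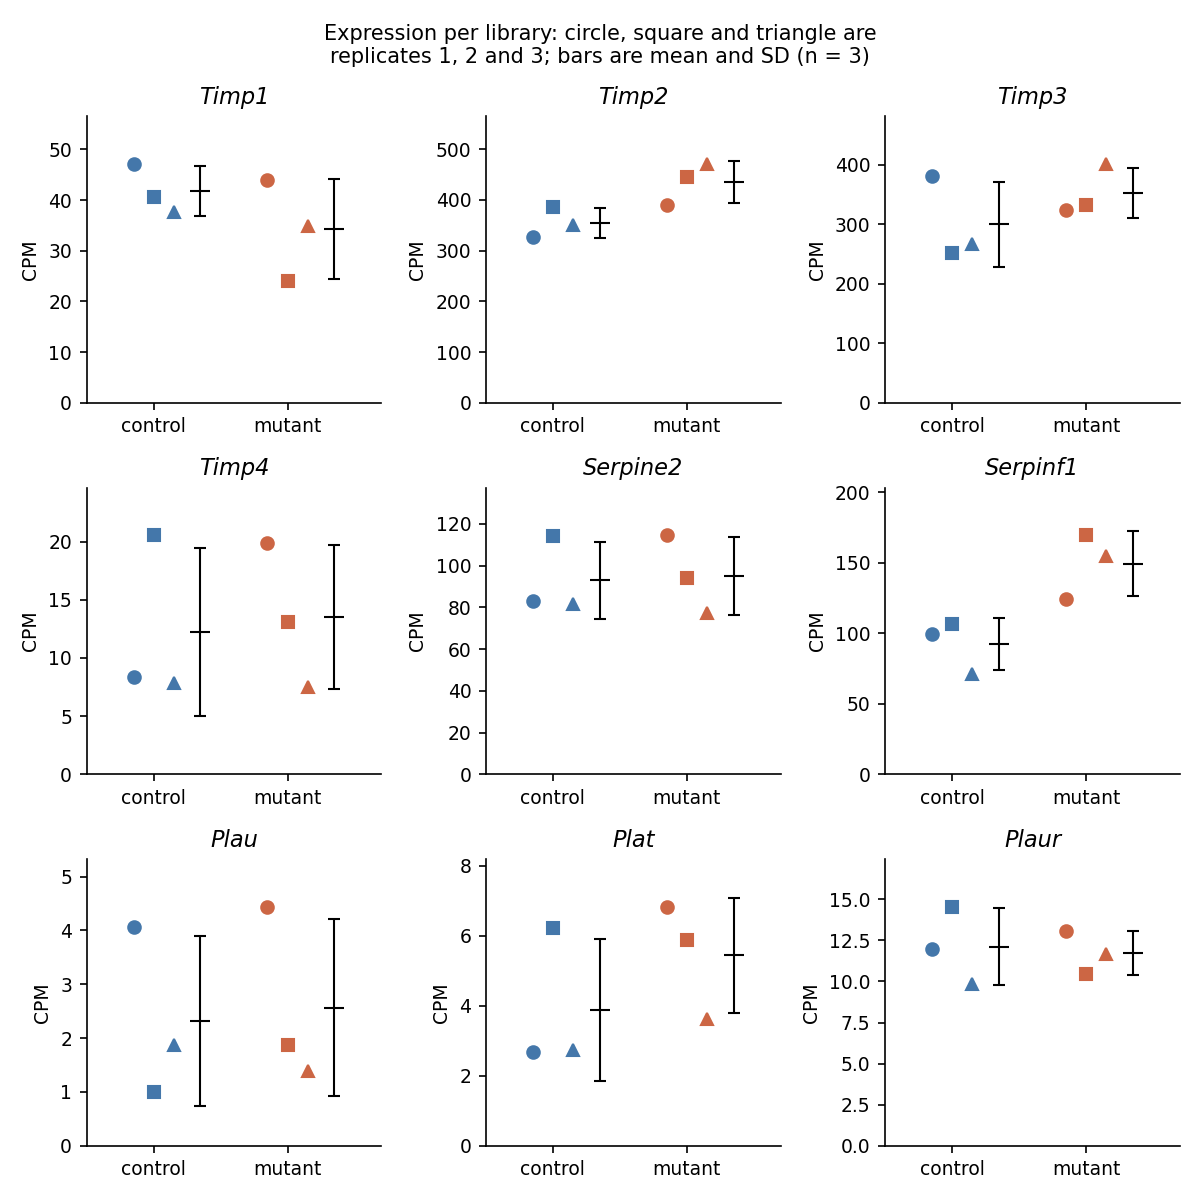
Expression in CPM of each gene in control (blue) and mutant (orange) libraries, with replicates 1, 2 and 3 as circle, square and triangle and the mean and SD of 3 libraries as bars. *Serpinf1* and *Timp2* are the genes whose mutant libraries all lie above the controls.

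*Serpinf1* had the highest log2 fold change of the 9 genes with all libraries in the fit, but not without control replicate 1 (0.77, against 0.83 for *Plau*), control replicate 2 (0.81, against 0.998 for *Plat*) or mutant replicate 3 (0.68, against 0.72 for *Plat*). It was at 99.3, 106 and 71.2 CPM in the controls and at 124, 169 and 154 CPM in the mutants. The lowest mutant library lay above the highest control library, and the means were 92.3 ± 18.6 and 149 ± 23.0 CPM (SD, n = 3). This is a log2 fold change of 0.69 (standard error 0.21, 95% interval 0.23 to 1.16), larger in absolute size than that of 86.8% of the genes tested. It stayed between 0.55, without control replicate 3, and 0.85, without mutant replicate 1.

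*Timp2*, which besides inhibiting MMPs takes part in the activation of pro-MMP2 at the cell surface, was at 326, 386 and 349.6 CPM in the controls and at 389, 446 and 470.5 CPM in the mutants. The groups did not overlap, but the lowest mutant and the highest control library were 389 and 386 CPM. The log2 fold change was 0.30 (standard error 0.19, 95% interval -0.12 to 0.71). With each library left out it stayed above 0, with a lowest value of 0.24 without mutant replicate 3.

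The sequence before the start site, from RefSeq on GRCm38.p6, was at hand for 7 of the 9 genes, all but *Plau* and *Plat*. It is shown for *Serpinf1*, which had the highest log2 fold change in the fit of all libraries, and for *Plaur*, the one window of the 7 with an AP-1 motif. Each line runs 5′ to 3′ on the strand of the gene, with motif matches in capitals. For *Serpinf1* the first 172 of the 250 bases are given, since GENCODE places transcribed, untranslated sequence in the last 78, and the window of *Timp2* is not printed because it lies mostly (203 bases) in such sequence.
Serpinf1: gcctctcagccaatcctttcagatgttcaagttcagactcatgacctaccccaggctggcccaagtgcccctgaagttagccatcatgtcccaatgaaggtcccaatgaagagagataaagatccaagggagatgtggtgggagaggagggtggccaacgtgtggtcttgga
Plaur: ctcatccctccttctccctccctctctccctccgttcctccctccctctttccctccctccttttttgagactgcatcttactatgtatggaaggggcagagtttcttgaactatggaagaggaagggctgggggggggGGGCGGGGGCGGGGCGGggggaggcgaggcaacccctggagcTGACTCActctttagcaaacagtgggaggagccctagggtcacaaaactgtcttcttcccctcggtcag
These are chr11:75422702-75422873 on the minus strand and chr7:24462233-24462482 on the plus strand. Both strands of the 250 bases were searched for an AP-1 motif (TGANTCA), a STAT motif (TTCNNNGAA), a GC box (GGGCGG) and a TATA box (TATAAA), which occur in 6.75%, 7.02%, 32.7% and 12.4% of the 32851 windows of this length. *Plaur* held TGACTCA starting 69 bases before the start site and 3 GC boxes, of which 2 share 1 base. *Serpinf1* held none of the 4 motifs, and no window of the 7 held the STAT or TATA letters. *Timp1*, *Timp2* and *Timp3* held 1 GC box each, *Serpine2* held 6, of which 2 share 1 base, and *Timp4* none. The last 40 bases of the *Timp3* window and the last 31 of the *Serpine2* window are also transcribed, untranslated sequence in GENCODE, and they hold the GC box of *Timp3* and 2 of those of *Serpine2*. The whole *Serpine2* window (79858666 to 79858915, minus strand) lies inside the gene as GENCODE places it (79794197 to 79861180). Its 6 GC boxes are thus not before the outermost start of that gene. Whether the GC box of *Timp2*, at 37 bases before the start site, lies among the 203 bases of such sequence in its window was not determined. The windows were 51.6% G and C for *Serpinf1*, 59.6% for *Plaur* and 78.8% for *Serpine2*, with a median of 52.4% over all windows. A match of letters is a description and not a binding site.

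Markers of the outer annulus and of tendon also varied between libraries. The sum of 8 such markers, most of it *Col1a1* and *Col1a2*, was 25975, 18510 and 10625 CPM in the controls and 22936, 40965 and 36589 CPM in the mutants. Of the 8 genes, 7 had a log2 fold change above 0 (median 0.67). In edgeR, 3 had an unadjusted p under 0.05, where 7.21% of all genes did. *Thbs4* (62.9 to 113 against 148 to 200 CPM) and *Tnmd* (28.8 to 34.0 against 40.1 to 85.6 CPM) were higher in every mutant library, and the other markers of this list overlapped. None of the 8 was at 0 counts in all libraries. *Serpinf1* was highest in mutant replicates 2 and 3 and lowest in control replicate 3, as was this sum. For *Timp2* the highest libraries were the same, while the lowest was control replicate 1, which had the highest control sum. Mutant replicate 1 had a lower sum than control replicate 1 and higher values of both genes. A sum of 7 fibroblast markers was 897 to 1192 CPM in control and 854 to 1521 CPM in mutant libraries. Of these 7, 6 had a log2 fold change above 0 (median 0.25). One of 6 osteoblast markers was 758 to 1213 CPM in control and 871 to 1140 CPM in mutant libraries. Most of the osteoblast sum was *Alpl* and *Ibsp*. The osteocalcin genes *Bglap* (5.33 to 6.53 CPM in control and 10.9 to 25.5 CPM in mutant libraries) and *Bglap2* (2.89 to 4.28 and 5.84 to 10.6 CPM) were higher in every mutant library. *Sp7* (80.7 to 120 and 55.4 to 113 CPM) and *Alpl* (414 to 643 and 410.5 to 506 CPM) overlapped, and 4 of the 6 had a log2 fold change above 0. The sum of 7 macrophage markers was 51.7 to 70.1 CPM in control and 58.2 to 108 CPM in mutant libraries, and 6 of the 7 had a log2 fold change above 0. Blood cell markers were low in sum, at 16.2 to 57.1 and 29.2 to 138 CPM over 7 neutrophil genes and 19.3 to 173 and 119 to 272 CPM over 6 erythroid genes, with a log2 fold change above 0 for all 7 neutrophil and all 5 tested erythroid genes (medians 0.99 and 1.02). The part of these tissues in the values of *Serpinf1* and *Timp2* was not tested.

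**Figure D4:**
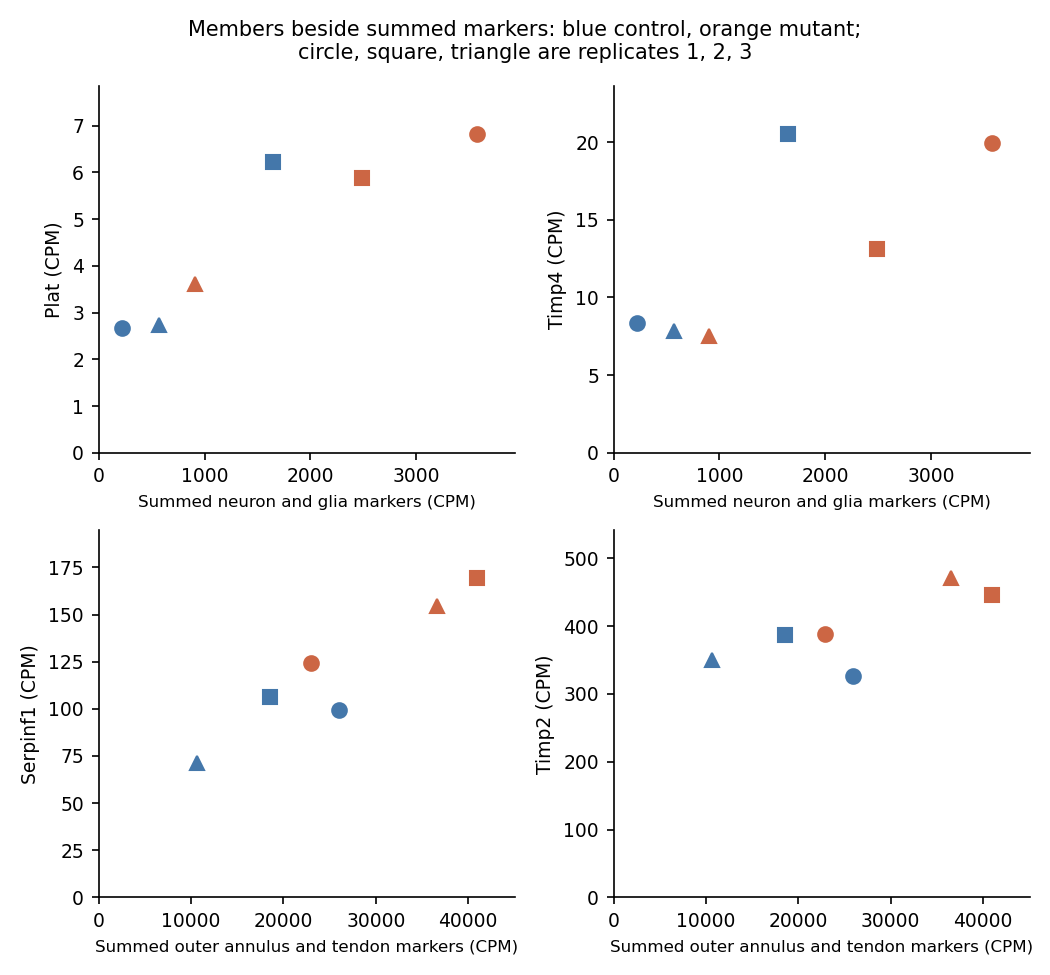
*Plat* and *Timp4* against the summed neuron and glia markers, and *Serpinf1* and *Timp2* against the summed outer annulus and tendon markers, all in CPM, 1 point per library, control blue and mutant orange, with replicates 1, 2 and 3 as circle, square and triangle. Control replicate 2 and mutant replicates 1 and 2, high in neuron and glia markers, are also the 3 highest libraries for *Plat* and *Timp4*.

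*Timp3*, which stays bound to the matrix and also inhibits ADAM17 and aggrecanases, was at 382, 252 and 266 CPM in the controls and 323, 333 and 401 CPM in the mutants. Control replicate 1 lay among the mutant libraries. The difference for *Timp3* was 0.23 on the log2 scale (standard error 0.22, 95% interval -0.25 to 0.72), and 0.20 with *Syn3* counts added. Without control replicate 1, the library with the muscle markers, it was 0.46, and *Timp3* then joined *Serpinf1* at an unadjusted p under 0.05 in edgeR. Over the other alternatives it was lowest, at 0.12, without control replicate 2.

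*Timp1*, a secreted inhibitor known to be induced in injury and inflammation, was the inhibitor with a value below 0. It was at 47.1, 40.6 and 37.6 CPM in the controls and 43.9, 24.1 and 34.8 CPM in the mutants. The groups overlapped through mutant replicate 1, and mutant replicate 2 was the lowest library. For *Timp1* this is a log2 fold change of -0.29 (standard error 0.22, 95% interval -0.78 to 0.21), and it ran from -0.47 without mutant replicate 1 to -0.07 without mutant replicate 2, with -0.17 without control replicate 1. As *Timp2* and *Timp1* differed in sign, their log2 ratio of level per length within a library was 0.66, 1.12 and 1.08 in the controls and 1.01, 2.08 and 1.62 in the mutants, which overlap in 1 mutant library.

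*Timp4*, known from brain, heart and fat more than from cartilage, was at 8.35, 20.5 and 7.82 CPM in the controls and 19.9, 13.1 and 7.54 CPM in the mutants. High and low libraries were found in both genotypes. This gave a log2 fold change of 0.15 (standard error 0.43, 95% interval -0.81 to 1.11), and with 1 library left out it ran from -0.19, without mutant replicate 1, to 0.73, without control replicate 2.

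*Plat* encodes the activator that is known from endothelium and the nervous system. It had 25, 56 and 35 counts in the controls and 60, 72 and 34 counts in the mutants, or 2.68, 6.22 and 2.74 CPM and 6.83, 5.88 and 3.61 CPM. Control replicate 2 lay among the mutant libraries. On the log2 scale the difference for *Plat* was 0.49 (standard error 0.46, 95% interval -0.53 to 1.52), rising to 0.998 when control replicate 2 was left out and falling to 0.30 or 0.31 when control replicate 3 or 1 was.

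*Plat* and *Timp4* were high in the same 3 libraries, control replicate 2 and mutant replicates 1 and 2. The sum of neuron and glia markers was 219, 1647 and 574 CPM in the controls and 3572, 2489 and 905 CPM in the mutants, and these 3 libraries were its highest as well. The myelin gene *Mbp* made up most of the sum, at 168 to 1509 CPM in control and 755 to 3317 CPM in mutant libraries, and the astrocyte gene *Gfap* was at 6.49 to 34.5 and 29.0 to 94.0 CPM. All 7 markers had counts in some library, but *Snap25* had none in control replicate 1 or mutant replicate 3, and *Nefl* had none in control replicate 3. The part of nervous tissue in the values of *Plat* and *Timp4* was not tested. Endothelial markers did not follow the same order, with sums over 6 genes of 231, 113 and 153 CPM in the controls and 188, 213 and 203 CPM in the mutants.

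*Plau*, the gene of urokinase, was the least counted member, with 38, 9 and 24 counts in the controls and 39, 23 and 13 in the mutants. This is 4.07, 0.999 and 1.88 CPM against 4.44, 1.88 and 1.38 CPM, with replicate 1 high in both genotypes. The log2 fold change was 0.14 (standard error 0.67, 95% interval -1.34 to 1.63), which leaves room for more than a 2-fold difference either way. It was 0.83 without control replicate 1 and -0.47 without mutant replicate 1.

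*Plaur* was at 11.99, 14.5 and 9.85 CPM in the controls and 13.1, 10.4 and 11.7 CPM in the mutants. The mutant libraries lay inside the range of the controls. The log2 fold change was -0.05 (standard error 0.24, 95% interval -0.58 to 0.49).

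*Serpine2* was at 83.2, 114 and 81.6 CPM in the controls and 114, 94.2 and 77.1 CPM in the mutants. Both groups spanned nearly the same range. The log2 fold change was 0.04 (standard error 0.21, 95% interval -0.43 to 0.50), and 9.19% of the genes tested had a change of smaller absolute size. The log2 ratio of *Serpine2* to the sum of *Plau* and *Plat*, which are among its targets, was 2.83 ± 0.55 in control and 2.64 ± 0.40 in mutant IVDs on the scale of level per length (SD, n = 3).

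**Figure D5:**
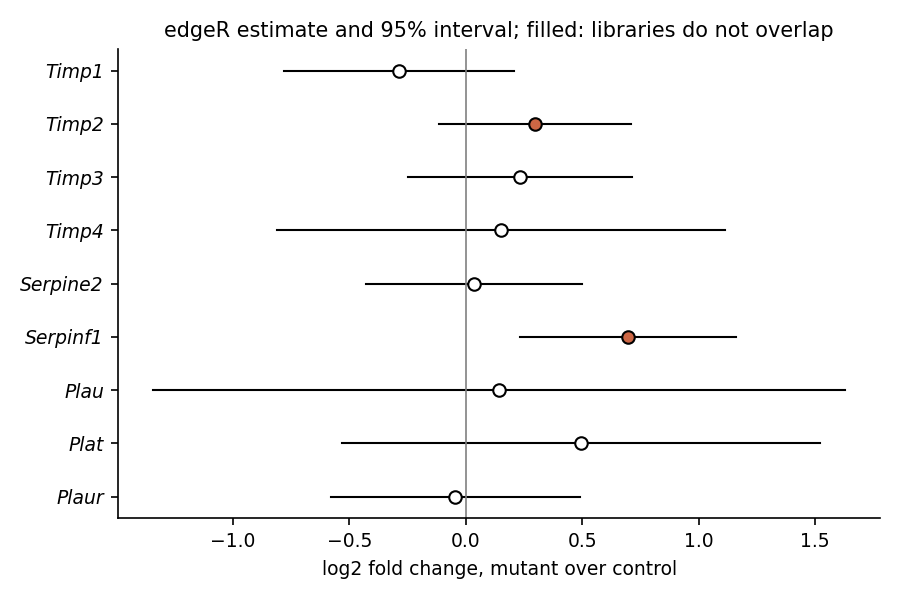
Log2 fold change of mutant over control IVDs for each gene from edgeR (points) with its 95% interval (lines), filled where the mutant and control libraries do not overlap. The interval of *Serpinf1* runs from 0.23 to 1.16, and those of the other 8 genes include 0.

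The coefficient of variation over the 3 control libraries was 8.55% for *Timp2* and between 11.6% and 23.7% for *Timp1*, *Plaur*, *Serpine2*, *Serpinf1* and *Timp3*. For *Plat*, *Timp4* and *Plau* it was 52.3%, 58.8% and 68.3%. Counting error alone would give 16.1%, 9.09% and 20.6% for these 3 genes, and 1.65% for *Timp2*. In mutant libraries these 3 genes were at 30.4%, 45.8% and 63.96%, and the spread was not compared between genes by a test.

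The wider plasminogen system was followed in 29 further genes, of which 19 were tested. In edgeR, 3 had an unadjusted p under 0.05, all higher in mutant IVDs, where 2.89% of all genes were called in this direction. None was called lower, where 4.32% of all genes were. None passed after adjustment over all genes, where 0.00619% of all genes did (0 of the list also with DESeq2 and limma-voom). The median log2 fold change of the 19 was 0.03. *Serping1*, which encodes the C1 inhibitor, was at 25.4 ± 1.07 CPM in control and 34.4 ± 4.18 CPM in mutant IVDs (log2 fold change 0.44, standard error 0.16), with no overlap. *Procr*, the receptor of protein C, was at 6.40 ± 1.72 and 11.2 ± 3.47 CPM (0.80, standard error 0.32), also without overlap. *Vldlr*, a receptor that takes up complexes of urokinase with its inhibitors, was at 9.94 ± 2.07 and 15.9 ± 3.98 CPM (0.68, standard error 0.27). Its groups overlapped, with mutant replicate 3 at 11.4 CPM below control replicate 2 at 12.3 CPM.

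The 3 genes of this list with the highest level per length, named for that level, were *Eno1* at 213, *S100a10* at 164 and *Anxa2* at 141 CPM per kb, while the plasminogen receptor *Plgrkt* was at 2.55 CPM per kb. *Anxa2*, whose protein binds plasminogen activator and plasminogen at the cell surface, was at 521 ± 58.3 CPM in control and 531 ± 7.79 CPM in mutant IVDs, and its partner *S100a10* at 208 ± 31.6 and 190 ± 18.9 CPM. *Eno1*, which serves glycolysis and can also bind plasminogen, was at 1031 ± 36.3 and 1261 ± 359 CPM. *Thbd*, the thrombin receptor thrombomodulin, was at 28.1 ± 7.88 and 34.5 ± 5.12 CPM, and *Lrp2*, at 3.98 ± 3.31 and 1.31 ± 0.638 CPM, overlapped between genotypes.

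Of 38 genes listed as other protease inhibitors, 30 were tested. At an unadjusted p under 0.05 in edgeR, 2 were called higher and 1 lower (background 2.89% and 4.32% of genes). After adjustment 0 passed, against 0.00619% of all genes (0 also with DESeq2 and limma-voom, and 1, *Spock3*, without the filter on low counts). The median log2 fold change of the 30 was 0.02. *Cast*, which encodes the calpain inhibitor calpastatin, was at 29.4 ± 3.02 CPM in control and 41.8 ± 1.54 CPM in mutant IVDs (log2 fold change 0.51, standard error 0.16), with no overlap. *Itih5*, a protein that binds hyaluronan, was at 20.7 ± 1.53 and 34.98 ± 12.4 CPM (0.76, standard error 0.26), and mutant replicate 1, at 21.6 CPM, lay inside the control range. *Spock3*, a testican of the matrix, was lower, at 6.51 ± 5.16 and 1.34 ± 0.784 CPM (-2.26, standard error 0.72), with control libraries from 1.82 to 12.04 CPM.

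*Reck*, a membrane-anchored inhibitor of MMPs, was at 46.2 ± 9.90 CPM in control and 60.2 ± 15.5 CPM in mutant IVDs, with overlap, and *Serpina3n* at 5.84 ± 3.89 and 10.6 ± 1.19 CPM. The most abundant genes of this list per length were *Sparc* and *Serpinh1*, a matrix protein and a collagen chaperone that are not protease inhibitors, and *Cst3*, the cathepsin inhibitor cystatin C, at 1868 ± 698 and 1452 ± 146 CPM. *Serpinh1* was at 1751 ± 335 and 1704 ± 130 CPM. The mean of *Sparc* was 48879 CPM in control and 48976 CPM in mutant IVDs.

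Of 34 listed metalloproteinases of the MMP, ADAM and ADAMTS families, 27 were tested. TIMPs are not known to act on every one of them. At an unadjusted p under 0.05 in edgeR, 3 were called higher and 0 lower (background 2.89% and 4.32% of genes). After adjustment 0 passed, against 0.00619% of all genes (0 also with DESeq2 and limma-voom, and 1, *Mmp3*, without the filter on low counts). The median log2 fold change of the 27 was 0.22. Mutant libraries lay above all controls for 6 of the 27 and below for 1, against 5.45% and 5.96% of all genes. The 3 were *Mmp3*, *Mmp15* and *Adamts2*. *Mmp3*, a stromelysin that is itself activated by plasmin, was at 5.24, 9.55 and 5.16 CPM in the controls and 19.8, 13.5 and 13.1 CPM in the mutants, where *Timp1* and *Timp2* had log2 fold changes of -0.29 and 0.30. *Mmp2*, at 136 ± 27.2 and 183 ± 20.2 CPM, had the highest level per length of this list and did not overlap (log2 fold change 0.44, standard error 0.20), while *Mmp14*, the membrane protease that activates it together with *Timp2*, was at 266 ± 48.2 and 272 ± 16.3 CPM. *Mmp16*, at 32.4 ± 3.32 and 22.6 ± 7.03 CPM, and *Adam15*, at 120 ± 11.6 and 133 ± 17.2 CPM, overlapped.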

How the data were processed

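RNA-seq was performed by the study on poly(A) RNA of P20 IVDs, with paired-end reads. The authors deposited raw counts per gene symbol, 1 file per library. The study's methods name Cutadapt, HISAT2 on GRCm38.88, StringTie and Ballgown, while the submitters' processing notes name STAR 2.5.3a, HTSeq and DESeq2 on mm10. The closing lines that name no gene were left out: 40.4% to 44.2% of what a file counts lay on genes, 39.4% to 43.3% on no feature, 12.0% to 18.9% was not aligned and 0.846% to 1.05% was ambiguous. A table of the authors' own comparison (fold changes, p-values, size-factor scaled counts) was not used. Counting error is the only error that depth covers. Reads carry no molecular identifiers, so copies from amplification cannot be told from separate molecules.

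The genotypes were tested against each other in R 4.3.3 with edgeR 4.0.16 (TMM, filterByExpr at a count minimum of 10, quasi-likelihood test, Benjamini-Hochberg adjustment over all 16152 genes tested). CPM are scaled by TMM. A standard error is the size of the log2 fold change divided by the square root of F. Lengths and coordinates are from GENCODE M21 (GRCm38), in which, or in RefSeq, 93.3% of symbols were matched. Level order was tested with an exact sign-flip test over libraries. Members and lists were chosen with earlier results of these data known. All 9 members, genes that overlap them, and, in each of 3 wider lists, the 5 genes with the smallest p and the 3 with the highest level per length were named. Alternatives were RLE, no filter, a block for the replicate number, limma-voom 3.58.1 with quality weights, DESeq2 1.42.0, host counts added and each library left out. Some inhibitors of the plasminogen system are not reported here. Pools are separate samples, but whether they come from separate litters is not stated.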

Additional observations from a re-analysis of the deposited data

How the results depend on the processing

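With RLE size factors, the number of the 9 genes past 0.05 was as reported, 0 adjusted and 1 unadjusted, as with no filter, DESeq2, limma-voom, the replicate block and host counts added. Leaving out 1 library gave 1 to 2 unadjusted, 2 without control replicate 1, and 0 adjusted.

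Over all genes, the adjusted count of 1 became 245 with no filter, 58 with DESeq2, 0 with limma-voom and 0 with the replicate block, and ran from 0 to 31 with 1 library left out, 31 without control replicate 1. The unadjusted count of 1164 was 2276 with no filter and between 618 (without control replicate 3) and 2427 (without control replicate 1) when 1 was left out. For the plasminogen, inhibitor and metalloproteinase lists, the unadjusted count of 3 each became 5, 5 and 7 with no filter, and the metalloproteinases 6 with limma-voom. With 1 library left out, these unadjusted counts ran from 1 to 2, from 2 to 5 and from 2 to 7. The plasminogen count was 1 without control replicate 1 or mutant replicate 3, the inhibitor count 5 without control replicate 1 or 2, and the metalloproteinase count 7 without control replicate 1. After adjustment the 0 of each list became 0, 1 and 1 with no filter, and stayed 0 with 1 library left out.

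Of the 9 log2 fold changes over 12 alternatives, those of *Serpinf1*, *Timp2*, *Timp3* and *Plat* stayed above 0 and that of *Timp1* below 0 in all 12. *Serpine2* was below 0 in 4, *Timp4* in 4, *Plau* in 2 and *Plaur* in 10. With limma-voom, *Timp4* was at -0.20, *Serpine2* at -0.13 and *Plat* at 0.24, and the cause was not tested. With the longest transcript as the length, 4 of the 9 genes kept their place in the order of levels, with host counts added 6, and with 1 library left out 9.

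The numbers 1 to 3 were not taken to pair the libraries. Deviations of same-numbered libraries correlated at 0.159, -0.132 and 0.101, and with the replicate block 1002 genes had an unadjusted p under 0.05 in edgeR. With 3 libraries a group, these values cannot settle whether same-numbered libraries share a litter or a preparation. Depth limits *Plau* and *Plat* most, with 146 and 282 counts over all 6 libraries.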
